A study of Rattus norvegicus with 25 samples.

Results

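The glucocorticoid receptor gene Nr3c1 and 9 genes that are known to respond to it or to supply its hormone were followed in McArdle-RH7777 cells, hepatoma cells of the rat that release lipoproteins carrying apoB. The 10 genes are Nr3c1, Hsd11b1, Fkbp5, Tsc22d3, Sgk1, Dusp1, Per1, Klf9, Zfp36 and Tat. They were taken as named, and every probe set annotated with exactly 1 of these symbols was used, which gave 15 probe sets of the 31042 tested and 10 genes of the 14217 with a named probe set. Fkbp5, Nr3c1 and Dusp1 had 2 probe sets each, Klf9 had 3 and the others had 1.

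RNA of 25 arrays from 7 stable cell lines was measured. Sar1B:H79G was expressed in 2 lines (4 arrays each), Sar1B in 2 lines (4 arrays each) and Sar1A in 1 line (4 arrays), and 2 control lines carried empty vector (2 and 3 arrays). Sar1 is the small GTPase that starts the assembly of COPII vesicles at the endoplasmic reticulum, and the H79G form cannot hydrolyze GTP. Every line, controls included, held the tetracycline repressor, was kept in blasticidin and Zeocin and received 1 µg/ml tetracycline for 24 h before harvest. Each line is a picked clone that carries a FLAG-tagged human SAR1 construct or the empty vector, so that a construct and the clones that carry it are followed together, and 1 or 2 clones per group limit the precision. The paper reports more recombinant Sar1 in its Sar1A lines than in its Sar1B:H79G lines, with a larger excess over its Sar1B lines. Construct and amount of recombinant protein therefore vary together. The labels name no added glucocorticoid. The paper's medium for these cells contained heat-inactivated serum (FCS), whose glucocorticoid content is not given.

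The glucocorticoid receptor waits in the cytoplasm in a complex with Hsp90 and its co-chaperones, binds cortisol or corticosterone, moves to the nucleus and there binds glucocorticoid response elements or other transcription factors. In liver it is known for driving gluconeogenesis and amino acid breakdown, and for the daily and stress-linked changes of these pathways. Several of its targets, such as Fkbp5 and Tsc22d3, act back on the receptor or on inflammatory signals, while others, such as Dusp1, Sgk1, Per1 and Zfp36, are also induced by kinase, cyclic AMP or stress signals without the hormone.

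The promoter windows of 4 of the genes are shown because they hold the letters of a cAMP response half-site or a TATA box. RefSeq windows (build GRCr8) from 250 bases before to 50 bases after an annotated start were matched for 9 of the 10 genes, 14 windows in all; Hsd11b1 was not matched. The windows of Sgk1, Nr3c1, Fkbp5 and Per1 and the Tsc22d3 window shown stand at annotated starts inside the span of the gene rather than at its outer end. Capitals mark TGACG, the half-site of the cAMP response element TGACGTCA, and the TATA box TATAAA, each searched on both strands; TGACG is part of TGACGTCA.
Dusp1 (chr10:17184603-17184902, + strand): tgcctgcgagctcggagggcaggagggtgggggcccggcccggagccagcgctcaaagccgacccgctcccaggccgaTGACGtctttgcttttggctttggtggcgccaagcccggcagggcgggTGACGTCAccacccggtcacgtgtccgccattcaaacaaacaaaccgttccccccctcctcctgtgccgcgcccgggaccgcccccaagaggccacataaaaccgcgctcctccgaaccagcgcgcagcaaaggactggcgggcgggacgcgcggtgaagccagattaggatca
Sgk1 (chr1:24804782-24805081, - strand): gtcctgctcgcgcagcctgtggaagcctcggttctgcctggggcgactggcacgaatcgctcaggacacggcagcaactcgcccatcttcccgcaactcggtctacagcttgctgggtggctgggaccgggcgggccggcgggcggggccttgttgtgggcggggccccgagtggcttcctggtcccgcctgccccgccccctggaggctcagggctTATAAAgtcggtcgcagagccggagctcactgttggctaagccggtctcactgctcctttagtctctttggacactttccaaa
Klf9 (chr1:230126396-230126695, + strand): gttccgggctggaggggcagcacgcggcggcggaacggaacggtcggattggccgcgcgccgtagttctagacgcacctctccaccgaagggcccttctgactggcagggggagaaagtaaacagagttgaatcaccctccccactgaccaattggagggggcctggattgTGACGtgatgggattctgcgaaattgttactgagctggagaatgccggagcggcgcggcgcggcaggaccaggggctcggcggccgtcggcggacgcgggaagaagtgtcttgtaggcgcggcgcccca
Tsc22d3 (chrX:109009985-109010284, - strand): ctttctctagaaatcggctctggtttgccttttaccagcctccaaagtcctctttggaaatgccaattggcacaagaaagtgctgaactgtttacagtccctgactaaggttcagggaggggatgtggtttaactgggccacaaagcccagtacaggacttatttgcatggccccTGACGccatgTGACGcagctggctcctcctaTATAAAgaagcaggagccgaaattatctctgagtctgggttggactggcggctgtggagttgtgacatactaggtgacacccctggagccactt
Positions below count from the annotated start, with the base just before it at -1. TGACGTCA was found at -124 of Dusp1 and in no other of the 14 windows, against 1.83% of 33469 rat windows. TGACG stood in the Dusp1, Klf9 and Tsc22d3 windows shown (21.2% of all windows), at -172 and -124 in Dusp1 and on its other strand at -121, within TGACGTCA, at -79 in Klf9 and at -75 and -65 in Tsc22d3. TATAAA stood at -33 of the Sgk1 window shown, in a second Sgk1 window at -55, and at -44 of the Tsc22d3 window shown (14.2% of all windows). The full palindrome of the glucocorticoid response element, searched as AGAACA and TGTTCT with 3 bases between them, was in 0 of the 14 windows (0.0149% of all windows), and its half-site AGAACA was also in 0 of 14 (20.7% of all windows). A match is only a run of letters, and distal elements lie outside these windows.

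The signals are log2 values per probe set, made by the authors with loess and MAS 5, and levels are not ranked between genes; probe sets are only placed against the array median as a coarse check. The arrays of a line were averaged, because the methods call them technical replicates, and the 7 line means were compared in limma, with p-values adjusted over all 31042 probe sets and called under 0.05. Median signals per array lay between 8.1 and 8.16. All control arrays carry one code in their titles (ATB) and all Sar1 arrays another (TPB). The labels do not say what the codes stand for, and they are called array series here. Array series and construct cannot be told apart in any comparison with control, whereas the Sar1B:H79G, Sar1B and Sar1A lines share a series. Array control probe sets for poly-A RNAs (DapX, LysX, PheX, ThrX and TrpnX) were also read, although the paper names no such RNA as added. Their 5′ minus 3′ signals averaged -0.79 in Sar1B:H79G, -0.74 in Sar1B, -0.78 in Sar1A and -1.52 in control lines. TrpnX differed in sign from the others, with 0.63, 0.75, 0.71 and 0.0019 in the same groups. β-actin gave -0.67, -0.50, -0.61 and -0.88. The part of this difference in any result against control was not tested. Of the hepatocyte markers, 7 of 7 measured (Alb, Apoa1, Apob, Ttr, Serpina1, Hnf4a, Afp) lay above the median probe set, while 0 of 5 macrophage and 0 of 4 endothelial markers, 2 of 5 stellate cell or fibroblast markers and 1 of 3 cholangiocyte markers did.

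In the Sar1B:H79G lines the signal of the brighter receptor probe set was lower, while Sgk1, Fkbp5, Dusp1, Per1 and Klf9 were higher than in control. Against control, 10 of the 15 probe sets were called, 8 higher and 2 lower, where 22.3% of all probe sets were called (13.2% higher and 9.17% lower). By the brightest probe set of each gene, 5 genes rose (Sgk1 2.37-fold, Fkbp5 2.10-fold, Dusp1 1.52-fold, Per1 1.35-fold, Klf9 1.23-fold), 2 fell (Nr3c1 1.72-fold lower, Tsc22d3 1.26-fold lower) and 3 were not called (Tat, Zfp36, Hsd11b1). The median difference of the 15 probe sets was 0.40, against 0.03 over all probe sets. The count depended on the lines: 3 probe sets were called when control line 1 was left out (14% of all probe sets), 2 when control line 2 was (5.52%), and 4 when the first Sar1B:H79G line was (13.6%).

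Against Sar1B, within one array series, 3 of the 15 probe sets were called in the Sar1B:H79G lines, with Sgk1 (2.17-fold) and Per1 (1.26-fold) higher and Nr3c1 (1.47-fold lower) lower, where 8.63% of all probe sets were called (3.34% higher and 5.29% lower). The median difference was 0.10, against 0.01 over all probe sets. With so few calls the lines weighed heavily: 0 of 15 were called without either control line (4.77% of all probe sets each) or without Sar1B line 2 (3.97%), and 1 without Sar1B line 1 (6.43%). With only the 5 lines of the Sar1 array series in the fit, 0 were called (4.77% of all probe sets). Against the single Sar1A line 0 of 15 were called (2.96% of all probe sets), although 8 had an unadjusted p under 0.05, as did 15% of all probe sets. The comparisons with control, Sar1B and Sar1A share the same Sar1B:H79G lines. A line of a group outside a comparison does not enter its difference. Leaving such a line out changed only the shared estimate of the spread and its degrees of freedom. A call lost in that way, here or below, came with an unchanged difference. Every fit without a line also had fewer residual degrees of freedom than the 3 with all lines.

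**Figure D1:**
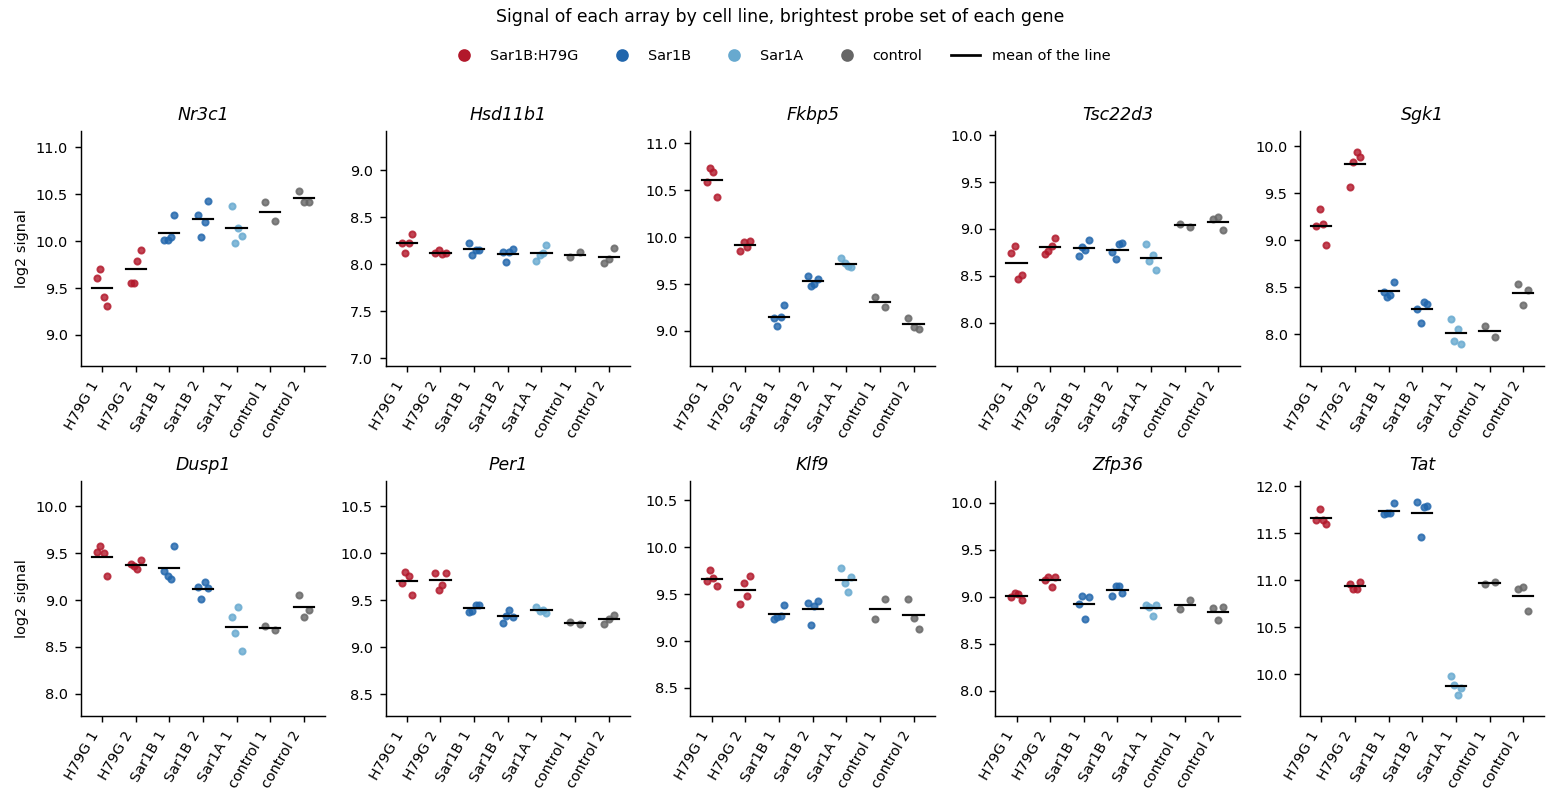
Signal (log2) of every array in the 7 lines for the brightest probe set of each of the 10 genes, with points for arrays and a bar for the mean of the line; every panel spans the same height. Sgk1, Per1 and Fkbp5 lay higher on every Sar1B:H79G array than on any other array, Nr3c1 lay lower, and the 2 Sar1B:H79G lines stood apart in Fkbp5, Sgk1 and Tat. How many of all probe sets separate the arrays in this way was not counted.

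Nr3c1 encodes the receptor itself. With its brighter probe set, 1368221_at, the Sar1B:H79G lines averaged 9.51 and 9.70, against 10.08 and 10.24 in the Sar1B lines, 10.14 in the Sar1A line and 10.31 and 10.46 in the control lines. The 8 Sar1B:H79G arrays ran from 9.31 over a median of 9.58 to 9.91, and the 8 Sar1B arrays from 10.01 over 10.12 to 10.43. No Sar1B:H79G array reached any array of the other 3 groups. Here and for the genes below, such separation only describes technical replicates of a few lines. Its share over all probe sets was not counted. The difference was -0.78 (SE 0.10) against control (limma adjusted p = 0.0053), -0.56 (SE 0.10) against Sar1B (adjusted p = 0.025) and -0.53 (SE 0.12) against Sar1A (adjusted p = 0.090). Native Sar1B and Sar1A lay below control by smaller amounts that were not called (-0.22, 95% interval -0.47 to 0.02, and -0.25, -0.55 to 0.05). Leaving out control line 2 ended the call against control (adjusted p = 0.0509), and the call against Sar1B ended without either control line (0.0592), without Sar1B line 2 (0.115) or without Sar1B:H79G line 1 (0.0753).

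The second Nr3c1 probe set, 1368222_at, gave another order. It read 8.14 and 7.88 in the Sar1B:H79G lines, 8.20 and 8.35 in the Sar1B lines, 8.40 in the Sar1A line and 7.52 and 7.42 in the control lines. Here the control arrays were lowest, and all arrays of the Sar1 lines lay above them. The probe set was called higher than control in all 3 constructs, by 0.54 in Sar1B:H79G (SE 0.11, adjusted p = 0.019), 0.80 in Sar1B (SE 0.11, adjusted p = 0.017) and 0.93 in Sar1A (SE 0.13, adjusted p = 0.043). Within the Sar1 array series both probe sets pointed the same way, with differences of -0.26 against Sar1B (95% interval -0.52 to 0.00, adjusted p = 0.23) and -0.39 against Sar1A (-0.71 to -0.07, adjusted p = 0.23) for 1368222_at, neither of them called. The mean of both probe sets differed by -0.12 from control (adjusted p = 0.27) and by -0.41 from Sar1B (adjusted p = 0.020). The direction of Nr3c1 against control therefore depended on the probe set, and the direction against Sar1B did not. The calls of 1368222_at against control were lost without control line 1 (0.0583 in Sar1B:H79G, 0.0560 in Sar1B, 0.0825 in Sar1A) and without control line 2 (0.124, 0.139 and 0.214), that in Sar1B:H79G also without its line 1 (0.0576), that in Sar1B without its line 2 (0.0702) and that in Sar1A without either Sar1B line (0.0567).

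**Figure D2:**
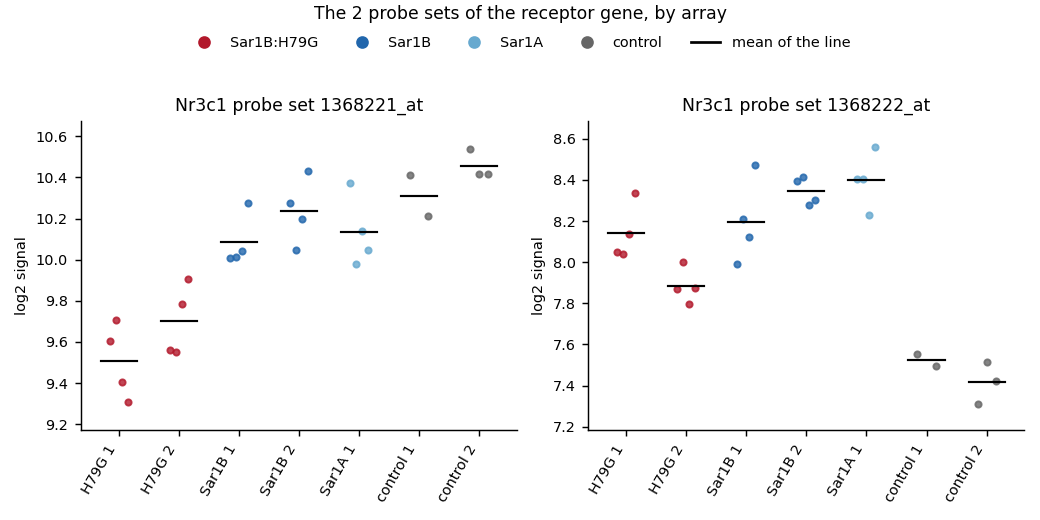
Signal (log2) of every array for the 2 Nr3c1 probe sets, by line, with points for arrays and a bar for the mean of the line. The Sar1B:H79G lines were lowest with 1368221_at (9.51 and 9.70) but lay between the other Sar1 lines and the control lines (7.52 and 7.42) with 1368222_at.

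By the brighter probe set, the genes whose pattern over the 7 line means was most like that of Nr3c1, out of 9432 genes above the median signal, were Abracl (r = 0.993), Scrn3 (0.993), Fbxo9 (0.992), Zfp346 (0.990) and Lamtor5 (0.989). These lines share array series and group structure, so that the correlations are a description. Lamtor5, a subunit of the Ragulator complex on lysosomes, read 10.75 and 10.96 in the Sar1B:H79G lines, 11.16 and 11.23 in the Sar1B lines, 11.16 in the Sar1A line and 11.32 and 11.36 in the control lines. Fbxo9, an F-box protein of a ubiquitin ligase, read 9.58 and 9.69 in the Sar1B:H79G lines and 9.90 and 9.98 in the control lines.

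Hsd11b1, the enzyme of the endoplasmic reticulum that regenerates active glucocorticoid from its inert keto form, differed little. It read 8.23 and 8.13 in the Sar1B:H79G lines, 8.16 and 8.11 in the Sar1B lines, 8.12 in the Sar1A line and 8.10 and 8.08 in the control lines, and the arrays of all groups overlapped. The difference from control was 0.08 (95% interval -0.08 to 0.25, adjusted p = 0.39) and that from Sar1B 0.04 (-0.12 to 0.20, adjusted p = 0.84). Its signal was close to the array medians, without detection calls.

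Fkbp5 encodes a co-chaperone that the hormone-bound receptor induces and that in turn lowers hormone binding by the receptor. With 1380611_at the Sar1B:H79G lines read 10.61 and 9.91, against 9.15 and 9.53 in the Sar1B lines, 9.72 in the Sar1A line and 9.31 and 9.07 in the control lines. Every Sar1B:H79G array lay above every array of the other groups, yet the 2 Sar1B:H79G lines were 0.70 apart. The difference was 1.07 (SE 0.24) against control (adjusted p = 0.028), 0.92 (SE 0.24) against Sar1B (adjusted p = 0.076) and 0.54 (SE 0.30) against Sar1A (adjusted p = 0.51). The other probe set, 1388901_at, read 10.25 and 9.88 in the Sar1B:H79G lines, 9.24 and 9.57 in the Sar1B lines, 9.54 in the Sar1A line and 9.49 and 9.28 in the control lines, a difference of 0.68 from control (SE 0.16, adjusted p = 0.034) and 0.66 from Sar1B (SE 0.16, adjusted p = 0.066). Native Sar1B lay close to control with both probe sets (0.15 and 0.02). Leaving out control line 1 (0.0797 for 1380611_at and 0.0796 for 1388901_at), control line 2 (0.167 and 0.187) or the first Sar1B:H79G line (0.0543 and 0.113) ended the calls against control, while without Sar1B:H79G line 2 both probe sets were called against Sar1B (0.0209 and 0.0446).

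Tsc22d3, which encodes the leucine zipper protein GILZ that carries part of the anti-inflammatory action of the hormone, did not follow Fkbp5. It read 8.63 and 8.81 in the Sar1B:H79G lines, 8.79 and 8.78 in the Sar1B lines, 8.69 in the Sar1A line and 9.04 and 9.07 in the control lines. All Sar1 lines lay below both control lines, and the Sar1B:H79G arrays overlapped those of Sar1B and Sar1A. The difference was -0.33 (SE 0.077) against control (adjusted p = 0.030) and -0.07 against Sar1B (95% interval -0.25 to 0.12, adjusted p = 0.75), with -0.27 for Sar1B (adjusted p = 0.083) and -0.36 for Sar1A (adjusted p = 0.11) against control. That call against control ended when control line 1 (0.0802), control line 2 (0.140), the first Sar1B:H79G line (0.111) or one of the Sar1B lines (0.0510) was left out.

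Sgk1, a serum- and glucocorticoid-regulated kinase that acts on ion channels and on FoxO factors downstream of PI3K, showed the largest difference among the 15 probe sets against control and against Sar1B. It read 9.15 and 9.81 in the Sar1B:H79G lines, 8.46 and 8.26 in the Sar1B lines, 8.01 in the Sar1A line and 8.03 and 8.44 in the control lines. The Sar1B:H79G arrays ran from 8.95 to 9.94 and lay above all other arrays, while native Sar1B (8.11 to 8.55) overlapped control (7.97 to 8.54). The difference was 1.24 (SE 0.23) against control (adjusted p = 0.017), 1.12 (SE 0.23) against Sar1B (adjusted p = 0.039) and 1.47 (SE 0.29, 2.77-fold) against Sar1A (adjusted p = 0.058). Leaving out control line 1 (0.0796) or control line 2 (0.0681) ended the call against control. The call against Sar1B ended without either control line (0.0828), with Sar1B line 1 (0.0813) or line 2 (0.157) left out, or without Sar1B:H79G line 2 (0.0698).

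Dusp1, the phosphatase that inactivates p38, JNK and ERK kinases and whose window holds TGACGTCA, was higher in both Sar1B forms. With 1368147_at it read 7.89 and 7.66 in the Sar1B:H79G lines, 7.59 and 7.48 in the Sar1B lines, 7.22 in the Sar1A line and 6.92 and 6.79 in the control lines, in the order Sar1B:H79G, Sar1B, Sar1A and control. The Sar1B:H79G arrays (7.44 to 8.02) overlapped the Sar1B arrays (7.43 to 7.69) and lay above the control arrays (6.67 to 6.96). The difference was 0.92 against control (SE 0.10, adjusted p = 0.0033) and 0.24 against Sar1B (95% interval 0.00 to 0.49, adjusted p = 0.24), and Sar1B was 0.68 above control (SE 0.10, adjusted p = 0.020). The brighter probe set, 1368146_at, read 9.46 and 9.38 in the Sar1B:H79G lines, 9.34 and 9.12 in the Sar1B lines, 8.71 in the Sar1A line and 8.70 and 8.92 in the control lines, with 0.61 against control (SE 0.11, adjusted p = 0.014) and 0.42 for Sar1B against control (adjusted p = 0.069). Sar1A lay near the control lines with 1368146_at (-0.10, 95% interval -0.42 to 0.23) and 0.37 above them with 1368147_at (adjusted p = 0.16). The call of 1368147_at in Sar1B:H79G against control was kept without each line in turn, whereas that of 1368146_at was lost without control line 1 (0.0609) or Sar1B:H79G line 1 (0.0535) and that of 1368147_at in Sar1B without any 1 of the control lines (0.0579 and 0.150) or Sar1B lines (0.0715 and 0.0667).

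Per1, a repressor of the circadian clock that glucocorticoids and cyclic AMP induce directly, had a small difference with little spread between lines. It read 9.70 and 9.71 in the Sar1B:H79G lines, 9.41 and 9.33 in the Sar1B lines, 9.39 in the Sar1A line and 9.26 and 9.30 in the control lines. The lowest Sar1B:H79G array (9.56) lay above the highest array of Sar1B (9.45), Sar1A (9.43) and control (9.34). The difference was 0.43 (SE 0.064) against control (adjusted p = 0.0083), 0.33 (SE 0.064) against Sar1B (adjusted p = 0.030) and 0.31 (SE 0.078) against Sar1A (adjusted p = 0.11). Leaving out control line 2 ended the call against control (0.0501). The call against Sar1B did not survive leaving out any 1 of the control lines (0.0647 each), Sar1B lines (0.0664 and 0.159) or Sar1B:H79G lines (0.0892 and 0.0991).

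Klf9, a zinc finger repressor induced by glucocorticoid and thyroid hormone, was called higher in Sar1B:H79G than in control with 1 of its 3 probe sets. The brightest probe set, 1370209_at, read 9.67 and 9.55 in the Sar1B:H79G lines, 9.28 and 9.34 in the Sar1B lines, 9.65 in the Sar1A line and 9.34 and 9.27 in the control lines. Sar1B:H79G differed from control by 0.30 (SE 0.072, adjusted p = 0.035), from Sar1B by 0.29 (SE 0.072, adjusted p = 0.065) and from Sar1A by -0.05 (95% interval -0.26 to 0.17, adjusted p = 0.95), and Sar1A lay 0.34 above control without passing the test (adjusted p = 0.11). The dimmer probe sets gave smaller differences from control, 0.21 (1387882_at, adjusted p = 0.062) and 0.12 (1390076_at, adjusted p = 0.27). The call of 1370209_at was lost in all 6 fits that left out a line (adjusted p = 0.139 and 0.0502 with Sar1B:H79G line 1 and line 2 left out, 0.0558 for either Sar1B line, and 0.0716 and 0.155 for control line 1 and line 2), and with quantile normalization (0.0507).

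Zfp36, which encodes tristetraprolin, a protein that speeds the decay of cytokine mRNAs, read 9.01 and 9.18 in the Sar1B:H79G lines, 8.92 and 9.07 in the Sar1B lines, 8.88 in the Sar1A line and 8.92 and 8.84 in the control lines. The Sar1B:H79G arrays lay just above the control arrays and overlapped those of Sar1B. The difference was 0.22 against control (95% interval 0.00 to 0.43, adjusted p = 0.13) and 0.10 against Sar1B (-0.12 to 0.31, adjusted p = 0.67), neither of them called.

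Tat, tyrosine aminotransferase and a classic hormone-induced liver enzyme, differed between the lines of one construct. It read 11.66 and 10.94 in the Sar1B:H79G lines, 11.74 and 11.72 in the Sar1B lines, 9.87 in the Sar1A line and 10.97 and 10.83 in the control lines. The arrays of the 2 Sar1B:H79G lines did not overlap (11.60 to 11.76 in line 1, 10.90 to 10.98 in line 2), and the first line lay near the Sar1B lines while the second lay near the control lines. The group differed from control by 0.40 (95% interval -0.13 to 0.93, adjusted p = 0.23), from Sar1B by -0.43 (-0.95 to 0.10, adjusted p = 0.35) and from Sar1A by 1.43 (0.78 to 2.07, adjusted p = 0.052). Sar1A differed by -1.85 from Sar1B (SE 0.27, adjusted p = 0.22) and by -1.03 from control (adjusted p = 0.11), from 1 line in which all 4 arrays (9.78 to 9.98) lay below every other array. Without Sar1B:H79G line 2 the group was called against control (adjusted p = 0.0094), and without Sar1B:H79G line 1 it was called against Sar1B (0.0129).

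**Figure D3:**
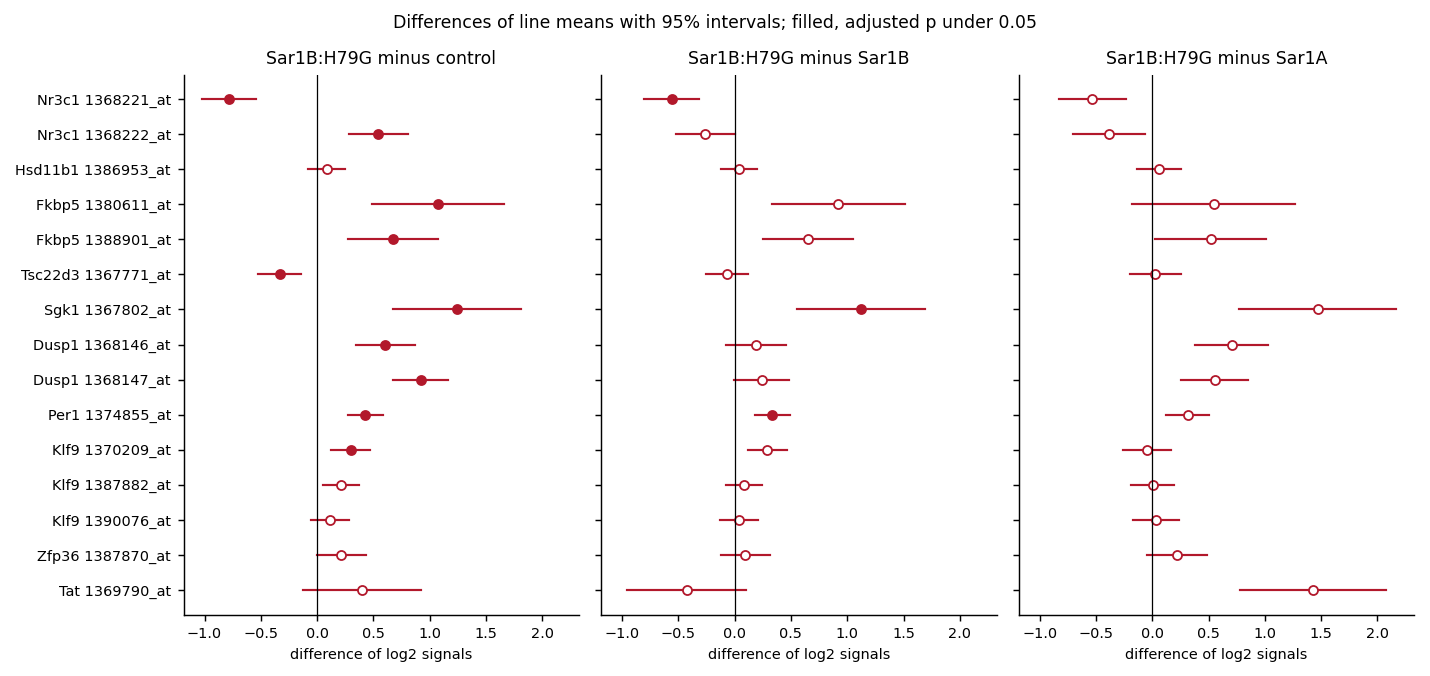
Difference of log2 signals between line means, with 95% intervals, for the 15 probe sets in Sar1B:H79G minus control, minus Sar1B and minus Sar1A; filled points have an adjusted p under 0.05. Filled points number 10 against control, 3 against Sar1B and 0 against Sar1A, and the 2 Nr3c1 probe sets lie on opposite sides of zero only against control.

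In the comparisons of native Sar1 most of the 15 probe sets were not called, and neither were most of all probe sets. In Sar1B against control 2 were called, both higher (Dusp1 1368147_at and Nr3c1 1368222_at; 8.29% of all probe sets), in Sar1A against control 1 (Nr3c1 1368222_at; 1.18%) and in Sar1A against Sar1B 0 (0.00322%). In these comparisons 5, 6 and 4 of the 15 probe sets had an unadjusted p under 0.05, against 29.4%, 22.8% and 6.56% of all probe sets. The Sar1B count was 0 without control line 1 (3% of all probe sets called), control line 2 (0%) or Sar1B line 2 (1.16%) and 1 without Sar1B line 1 (2.35%). The Sar1A count was 0 without either control line (0%) or either Sar1B line (0.322%) and 2 without either Sar1B:H79G line (1.19%), and Sar1A against Sar1B had 1 without either Sar1B:H79G line (0.00644%).

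Genes around the receptor were read by the brightest probe set of each. Of all 14217 genes, 3407 (23.96%) were called in Sar1B:H79G against control and 1718 (12.08%) against Sar1B. A gene can stand in more than 1 list. In these comparisons with control and with Sar1B, fewer of all probe sets were called whenever a line was left out. The ranges given below for such fits do not single out a list, and some reach above the count with all lines. Of the genes that supply the hormone or share its receptors, 6 of 8 were measured. Abcb1a, an efflux pump that exports glucocorticoids, averaged 10.84 in Sar1B:H79G, against 9.16 in Sar1B and 8.33 in control, and rose by 1.68 against Sar1B (adjusted p = 0.013) and 2.50 against control (adjusted p = 0.0025). H6pd, the enzyme that makes NADPH for Hsd11b1 inside the endoplasmic reticulum, averaged 9.49 in Sar1B:H79G, against 10.44 in Sar1B and 10.51 in control, and changed by -0.94 (adjusted p = 0.0061) and -1.02 (adjusted p = 0.0029). Nr3c2, the mineralocorticoid receptor, which binds the same hormones, averaged 8.36 in Sar1B:H79G, against 9.14 in Sar1B and 9.06 in control, and changed by -0.79 (adjusted p = 0.0063) and -0.70 (adjusted p = 0.0048). These 3 genes were the ones of the list called against control and against Sar1B; they were also called against Sar1A (2.04, -0.78 and -0.68), and their calls against control and Sar1B were kept without each line in turn.

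Of the receptor chaperones, 6 of 8 were measured. For these and the coregulators below, the shares of all genes called were 23.96% against control and 12.08% against Sar1B. Against control 2 rose and 0 fell, Ptges3, the p23 co-chaperone, by 0.45 (adjusted p = 0.035) and Dnajb1, an Hsp40, by 0.44 (adjusted p = 0.029), but they differed from Sar1B by 0.08 (adjusted p = 0.80) and -0.25 (adjusted p = 0.22). Against Sar1B 0 rose and 1 fell, Fkbp4 (FKBP52, which helps the loaded receptor reach the nucleus), with a mean of 11.40 in Sar1B:H79G, 12.22 in Sar1B and 11.59 in control, a difference of -0.83 from Sar1B (adjusted p = 0.015). Fkbp4 was higher in Sar1B than in control (0.64, adjusted p = 0.037). Each of these calls was lost without a line of the group it was set against (Ptges3 0.0520 and 0.175 and Dnajb1 0.0798 and 0.151 without control lines 1 and 2, Fkbp4 0.0516 and 0.0640 without Sar1B lines 1 and 2), and those of Ptges3 and Dnajb1 also without Sar1B:H79G line 1 (0.129) and line 2 (0.0685) in turn. Of the coregulators, 12 of 13 were measured, with 2 higher and 1 lower against control, and 0 higher and 1 lower against Sar1B. Ppargc1a, the coactivator PGC-1α of gluconeogenic genes, changed by -0.68 against control (adjusted p = 0.011) and -0.51 against Sar1B (adjusted p = 0.046). Med1, a Mediator subunit, rose by 0.93 (adjusted p = 0.0011) and Ncoa2, the coactivator GRIP1, by 0.39 (adjusted p = 0.019) against control, and both were also called in Sar1B against control (0.92 and 0.47). The Ppargc1a call against Sar1B was lost without either Sar1B line (0.130 and 0.164) or either Sar1B:H79G line (0.147 and 0.0699), and the Ncoa2 call without control line 2 (0.111) or Sar1B:H79G line 1 (0.0765).

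Of 26 other glucocorticoid-induced genes measured of 28, 7 rose and 2 fell against control (23.96% of all genes called). Against Sar1B 5 rose and 2 fell (12.08%), and the median differences were 0.08 and 0.11. The genes of this list did not move one way. Ddit4, an inhibitor of mTORC1 that stress also induces, averaged 9.32 in Sar1B:H79G, against 7.98 in Sar1B and 8.22 in control, and rose by 1.34 (adjusted p = 0.0085) and 1.10 (adjusted p = 0.0088). Mt2A, a metallothionein that binds zinc and copper, rose by 1.38 against control (adjusted p = 0.045) and differed by 1.48 from Sar1B (adjusted p = 0.065). Glul, glutamine synthetase, averaged 11.38 in Sar1B:H79G, against 12.88 in Sar1B and 12.28 in control, and changed by -1.50 (adjusted p = 0.0060) and -0.90 (adjusted p = 0.015). Anxa1, an anti-inflammatory phospholipid-binding protein, averaged 8.47 in Sar1B:H79G, against 10.998 in Sar1B and 8.84 in control, a difference of -2.53 from Sar1B (adjusted p = 0.0061) where Sar1B itself was 2.16 above control (adjusted p = 0.016). The number that rose against control ranged from 1 to 7 and against Sar1B from 1 to 5 when a line was left out. Ddit4 lost its call against control when control line 2 was left out (0.0780), and the Mt2A call without 5 of the 6 lines left out (0.0605 to 0.234), all but Sar1B:H79G line 2.

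Of 18 paralogs of the 10 genes, 5 rose and 5 fell against control, and 2 rose and 4 fell against Sar1B. Among all genes, 23.96% were called against control and 12.08% against Sar1B. Fkbp4, which fell against Sar1B, is counted here and among the receptor chaperones. Over the fits that left out a line, 2 to 4 rose and 1 to 5 fell against control, with the fewest of both without control line 2, and 0 to 3 rose and 2 to 3 fell against Sar1B. Tsc22d2, a relative of Tsc22d3, averaged 11.13 in Sar1B:H79G, against 10.41 in Sar1B and 9.65 in control, and rose by 0.72 (adjusted p = 0.033) and 1.48 (adjusted p = 0.0025). Dusp6, the phosphatase for cytoplasmic ERK, averaged 9.64 in Sar1B:H79G, against 11.09 in Sar1B and 10.81 in control, and changed by -1.45 (adjusted p = 0.024) and -1.17 (adjusted p = 0.026). Klf10, induced by TGF-β, changed by -0.76 against Sar1B (adjusted p = 0.04996) and -1.19 against control (adjusted p = 0.0077). Dusp6 lost its call against control without either control line (0.107 and 0.0740) or Sar1B:H79G line 2 (0.0634), and against Sar1B without Sar1B line 2 (0.102), Sar1B:H79G line 2 (0.0503) or either control line (0.0530). Tsc22d2 lost its call against Sar1B without any 1 of the Sar1B lines (0.0742 and 0.140) or Sar1B:H79G lines (0.104 and 0.0507), and Klf10 without Sar1B line 1 (0.146), Sar1B:H79G line 1 (0.129) or either control line (0.124), and against control without control line 2 (0.0699).

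The immediate-early genes, which kinases and stress induce within minutes, held the largest single difference of these lists, that of Atf3. Of 13 measured, 6 rose and 0 fell against control (23.96% of all genes called). Against Sar1B 3 rose and 1 fell (12.08%). With a line left out, 3 to 5 rose against control, fewest without control line 2, and 0 or 1 fell, while 3 to 4 rose and 0 to 2 fell against Sar1B. Atf3, a stress-induced bZIP factor, averaged 10.49 in Sar1B:H79G, against 7.79 in Sar1B and 7.77 in control, and rose by 2.70 (adjusted p = 0.0027) and 2.71 (adjusted p = 0.0012). Fosl1, an AP-1 subunit, rose by 1.80 (adjusted p = 0.0067) and 2.06 (adjusted p = 0.0029), and Jun, its partner, by 1.12 (adjusted p = 0.0035) and 1.41 (adjusted p = 0.0011). Egr1, a zinc finger factor downstream of ERK, went the other way, with means of 7.85 in Sar1B:H79G, 9.29 in Sar1B and 8.58 in control, a difference of -1.45 from Sar1B (adjusted p = 0.022) and -0.73 from control (adjusted p = 0.082). The calls of Atf3, Fosl1 and Jun were kept without each line in turn and were also made against Sar1A (2.69, 1.59 and 1.36), and that of Egr1 was lost without either control line (0.0631) or Sar1B:H79G line 2 (0.0698).

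Of 14 clock genes other than Per1, 1 rose and 2 fell against control (23.96% of all genes called). Against Sar1B 1 rose and 4 fell (12.08%). With a line left out, 1 to 2 rose and 1 to 3 fell against control, and 0 to 1 rose and 0 to 3 fell against Sar1B, with 0 of both without Sar1B line 2. Bmal1, the activator of the clock, averaged 9.16 in Sar1B:H79G, against 8.66 in Sar1B and 8.50 in control, and rose by 0.49 (adjusted p = 0.011) and 0.66 (adjusted p = 0.0031). Nr1d1 (REV-ERBα), which represses Bmal1, averaged 7.89 in Sar1B:H79G, against 8.31 in Sar1B and 8.48 in control, and changed by -0.42 (adjusted p = 0.022) and -0.59 (adjusted p = 0.0046). Tef, a PAR bZIP factor of clock output, changed by -0.41 (adjusted p = 0.043) and -0.45 (adjusted p = 0.019), and Bhlhe40, a repressor, by -0.82 against Sar1B (adjusted p = 0.018) and -0.28 against control (adjusted p = 0.17). Without single lines the calls against Sar1B were lost for Bmal1 (Sar1B line 2, 0.0637), Nr1d1 (Sar1B lines 1 and 2, 0.0608 and 0.111, and Sar1B:H79G line 2, 0.0790), Bhlhe40 (Sar1B lines 1 and 2, 0.0624 and 0.0597) and Tef (5 of 6 lines, 0.0729 to 0.157, all but Sar1B:H79G line 1). Against control, the Tef call ended with either control line (0.0733 and 0.0604) or the second Sar1B:H79G line (0.0640) left out.

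**Figure D4:**
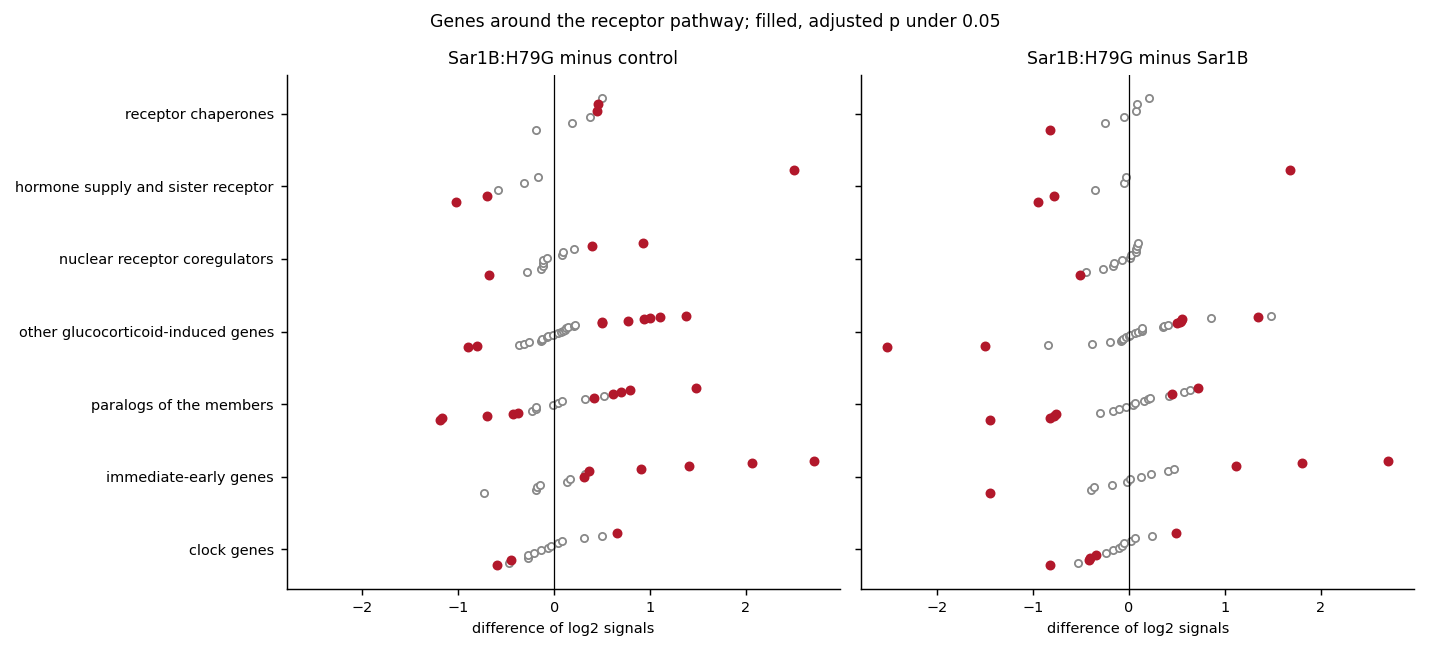
Difference of log2 signals in Sar1B:H79G minus control and minus Sar1B for every measured gene of the 7 lists around the receptor, by the brightest probe set; filled points have an adjusted p under 0.05. The rightmost filled points are Atf3 (2.71 and 2.70), Abcb1a lies at 2.50 and 1.68, and each list holds points on both sides of zero.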

How the data were processed

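RNA of 25 Affymetrix Rat Genome arrays from 7 stable McArdle-RH7777 lines was used. The authors normalized the intensities by loess and MAS 5 in CARMAweb (version not given in the sources used here) and deposited log2 values per probe set, without detection calls or background levels; the log base was inferred from the values. Of 31099 probe sets, 57 array controls were left out and 31042 tested, 20826 with 1 symbol, 436 with several and 9780 with none. Symbols of 20758 were checked against the rat gene table, and 0 changed.

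Arrays were averaged per line, since the methods call them technical replicates, and line means were fitted in limma 3.58.1 (R 4.3.3), with 3 residual and 3.16 prior degrees of freedom and Benjamini-Hochberg adjustment. The spread of the single Sar1A line was taken from the other groups. Genes were counted by their brightest probe set. All member probe sets are named, and from each list up to 4 genes with the largest called differences of Sar1B:H79G against control or Sar1B. The fit was also run on simulated data with independent line means and no effect of array series. Such data cannot show how the fit deals with that effect. The members and lists were chosen with earlier results of these data known, and the paper reports a glucocorticoid term from these arrays, so that they are not independent evidence. Hsp90aa1, Hspa8, Abcb1b, Srd5a1, G6pc1, Snai2, Tf, Cdh5 and Sox9 were not analysed here.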

Additional observations from a re-analysis of the deposited data

Results flagged for a closer look

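In 50 sets of 4 arrays (the brightest probe set of each of the 10 genes in each of the 5 lines with 4 arrays), 4 held 1 array far from the other 3, by Dixon's criterion at the 95% level, where chance gives about 1 in 20. All 4 lay in the Sar1B lines. In Sar1B line 1, Nr3c1 read 10.27 on 1 array and 10.01 to 10.04 on the others, Tat read 11.82 on 1 array and 11.70 to 11.72 on the others, and Klf9 read 9.38 on 1 array and 9.24 to 9.26 on the others. The far array was the same for these genes, array 4 of the line, so that these flags are not independent. By the brightest probe sets it was also the highest of its line for Fkbp5, Sgk1, Dusp1 and Tsc22d3, but not for Per1, Zfp36 and Hsd11b1. In Sar1B line 2, Tat read 11.46 on 1 array and 11.78 to 11.84 on the others.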

How the results depend on the processing

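Counts of called member probe sets are given in the order Sar1B:H79G against control, Sar1B and Sar1A, Sar1B against control, Sar1A against control and Sar1A against Sar1B, and were 10, 3, 0, 2, 1 and 0 of 15 as reported. Over all 31042 probe sets, 6928, 2680, 920, 2572, 367 and 1 were called in that order, and these totals also moved with the setting. With each array as a replicate the member counts were 14, 10, 10, 6, 8 and 4, and with lines as random blocks (array correlation 0.27) 12, 7, 9, 5, 6 and 2. Over all probe sets the first called 16241, 9869, 7215, 13093, 11251 and 3212, the second 11805, 6879, 4526, 8200, 5980 and 1191. Quantile normalization gave 9, 5, 1, 3, 1 and 0, arrays shifted to the same median 10, 4, 1, 2, 1 and 0, only probe sets above the median 8, 5, 3, 0, 0 and 0 of 11, only the groups compared 8, 0, 0, 3, 3 and 0, eBayes with trend and robust options 10, 2, 4, 3, 1 and 0, and an adjusted p under 0.01 3, 0, 0, 0, 0 and 0. Over all probe sets, quantile normalization called 7274, 2855, 1049, 2546, 512 and 1, and the same median 6848, 2624, 918, 2431, 340 and 1. Among 15521 probe sets above the median, 4808, 2681, 942, 1649, 339 and 1 were called. Only the groups compared gave 5873, 1482, 0, 2698, 2330 and 0, and trend and robust options 8079, 2612, 929, 3523, 1039 and 10. Under 0.01 there were 2095, 787, 125, 62, 1 and 1. When the probe sets of each gene were averaged, 5, 3, 3, 1, 0 and 0 of 10 genes were called. Among all 14217 genes the averages gave 3274, 1825, 631, 752, 34 and 2. With only the lines of one array series, an alternative chosen after seeing the data, the 3 comparisons among Sar1 lines had 0, 0 and 0 calls. Over all probe sets they had 1482, 258 and 0. Leaving out 1 line at a time gave 2 to 10, 0 to 3, 0 to 2, 0 to 3, 0 to 2 and 0 to 1. The line number as a replicate block gave 9, 3 and 2 in the 3 comparisons with 2 lines on each side. Over all probe sets that block gave 7017, 2623 and 2005. Fkbp5 1388901_at lost its call against control in that fit (adjusted p = 0.0522). Deviations of line 1 from its group mean correlated between groups at 0.0071, 0.075 and 0.192. With 1 such deviation per group, these values cannot settle whether the numbers pair lines. Of the alternative values of single probe sets, 387 kept direction and side of the threshold, 68 were no longer called, 28 were newly called and 3 changed sign: Nr3c1 1368222_at against control with the mean of both probe sets (-0.12), and, without Sar1B:H79G line 1, Tsc22d3 (0.02) and Hsd11b1 (-0.010) against Sar1B, whose values ran from -0.15 to 0.02 and from -0.010 to 0.091 when a line was left out. The causes were not tested. Without detection calls, how far a dim probe set lies above background is unknown.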
